A study of Mus musculus with 2 samples.

Results

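The genes described here encode 10 proteins of the actin filament system: the cytoplasmic actins Actb and Actg1, the tropomyosins Tpm1, Tpm3 and Tpm4, the filament-severing protein cofilin (Cfl1), the profilins Pfn1 and Pfn2, the side-binding protein drebrin (Dbn1) and the pointed-end capping protein tropomodulin 2 (Tmod2). They were taken by gene name from the deposited read tables, and are 10 of 18510 annotated genes with at least 1 read, on 175 transcript models in replicate 1 and 140 in replicate 2. RNA came from the left cerebral cortex of female B6CASTF1/J mice aged 14 days, hybrids of the strains C57BL/6J and CAST/EiJ, and each library was made from 2 µg for long-read sequencing. The 2 libraries form 1 group with no treatment, and the tables do not separate the parental alleles. Both are labelled as biological replicates, although the label of replicate 1 may mean that several females were pooled, and a single donor entry for the strain is given for both. Every p-value below therefore sets the gap between libraries against counting error, not against the spread between animals.

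Actin monomers add to the barbed end of a filament, carried there largely by profilin, while cofilin binds and severs older filament. Tropomyosin is a coiled coil that lies along the filament and decides which other proteins can bind it, and its genes make many forms from alternative first exons, internal exons and last exons. In neurons, drebrin binds filaments in dendritic spines, and its neuronal form carries an insert that the embryonic form lacks.

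Replicate 1 held 1072344 mouse reads and replicate 2 held 753520. Levels are given as RPM, reads scaled to a total of 1000000 mouse reads. A long read is counted once whatever the length of its transcript, so levels were not divided by length. In replicate 1 a read equals 0.933 RPM and in replicate 2 it equals 1.33 RPM, so that a gene without reads could still stand at up to 2.80 or 3.98 RPM. Intervals are at 95% and cover counting error only. Markers of excitatory neurons, inhibitory neurons and astrocytes had reads in both libraries for 5 of 5 genes of each list. The same held for myelinating oligodendrocytes, microglia and endothelial cells. Some of these genes had few reads, such as Slc32a1 of the inhibitory list with 2 and 1. Myelinating oligodendrocyte markers summed to 4855 RPM in replicate 1 and 2771 RPM in replicate 2. By the exact binomial test described below, 4 of the 5 were lower in replicate 2, against 0.52% of all genes tested. In bulk tissue, fewer cells of a type and less RNA per cell cannot be told apart. Choroid plexus and meningeal markers summed to 91.4 and 353 RPM. Of these, Ttr had 25.2 and 256 RPM, Dcn 29.8 and 58.4 RPM and Col1a1 34.5 and 30.5 RPM, and Kl had no reads. By the same exact binomial test Ttr was higher in replicate 2 (adjusted p = 4.1e-43), against 0.362% of all genes tested. Dcn and Col1a1 were not called.

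The sequences below come from the GENCODE M21 transcripts on GRCm38 (mm10) and are written 5′ to 3′. The first set shows how reads of the 2 cytoplasmic actins can be told apart although the proteins are nearly the same. Capitals mark the bases that differ over the first 60 coding bases, on the minus strand at chr5:142905627-142905686 for Actb and chr11:120348032-120348091 for Actg1.
Actb: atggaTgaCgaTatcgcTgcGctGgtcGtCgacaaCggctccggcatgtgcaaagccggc
Actg1: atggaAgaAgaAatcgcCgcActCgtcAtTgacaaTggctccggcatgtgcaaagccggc
Over these bases 9 differed, and over the whole coding sequence of 1125 bases 128 differed, an identity of 88.6%.

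The next set holds the alternative internal exons of Tpm3 and Tpm1, each 76 bases long, of which a transcript takes the upstream or the downstream exon. Capitals mark bases that differ within a gene's pair. The Tpm3 exons lie on the plus strand at chr3:90088401-90088476 and chr3:90089048-90089123, and those of Tpm1 on the minus strand at chr9:67032466-67032541 and chr9:67031951-67032026.
Tpm3 upstream: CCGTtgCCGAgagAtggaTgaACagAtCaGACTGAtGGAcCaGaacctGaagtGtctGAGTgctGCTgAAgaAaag
Tpm3 downstream: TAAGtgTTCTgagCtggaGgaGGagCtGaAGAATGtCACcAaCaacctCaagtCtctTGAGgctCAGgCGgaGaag
Tpm1 upstream: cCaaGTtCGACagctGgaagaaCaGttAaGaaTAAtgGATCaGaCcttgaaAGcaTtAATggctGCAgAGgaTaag
Tpm1 downstream: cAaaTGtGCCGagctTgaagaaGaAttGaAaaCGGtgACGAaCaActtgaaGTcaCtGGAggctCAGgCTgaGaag
The 2 exons within a gene were 51.3% identical in Tpm3 and 56.6% in Tpm1. The downstream exons of the 2 genes were 75.0% identical and the upstream exons 65.8%.

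The third set gives the drebrin insert and the pair of drebrin splice acceptors, on the minus strand of chromosome 13. The insert exon lies at chr13:55476636-55476773 and is in capitals, with 15 bases of each neighbouring exon in lower case. The acceptors are 3 bases apart, and the capitals mark the bases that the longer form adds.
Dbn1 insert: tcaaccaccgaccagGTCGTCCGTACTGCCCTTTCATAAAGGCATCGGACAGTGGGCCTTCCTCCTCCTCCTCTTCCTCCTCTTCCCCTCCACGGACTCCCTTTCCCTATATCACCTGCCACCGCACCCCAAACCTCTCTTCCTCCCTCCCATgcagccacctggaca
Dbn1 longer acceptor: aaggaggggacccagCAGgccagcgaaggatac
Dbn1 shorter acceptor: aaggaggggacccaggccagcgaaggatac

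The members spanned a wide range of levels and kept nearly the same order in both libraries. Actg1 stood highest at 2009 and 1873 RPM, rank 20 among all annotated genes, followed by Cfl1 at 1280 and 1281 RPM (rank 54). Actb had 926 and 962 RPM (rank 84) and Pfn2 684 and 670 RPM (rank 146). Tpm3 stood at 366 and 415 RPM, Dbn1 at 263 and 297 RPM, and Pfn1 at 195 and 253 RPM. The lowest were Tpm1 at 128 and 146 RPM, Tmod2 at 68.1 and 94.2 RPM and Tpm4 at 70.9 and 75.6 RPM. The 2 values of each gene did not overlap those of its neighbour in this order, except for Tmod2 and Tpm4. Within replicate 2, the counting intervals of Dbn1 (260 to 339 RPM) and Pfn1 (219 to 292 RPM) also overlapped. The order depends on the models counted: with annotated transcripts only, and scaled to their reads, the mean level of Tpm3 was 160 RPM in place of 391 and that of Dbn1 167 RPM in place of 280, both below Pfn1 (333 RPM) and Tpm1 (173 RPM). Together the members took 5990 and 6068 RPM.

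**Figure D1:**
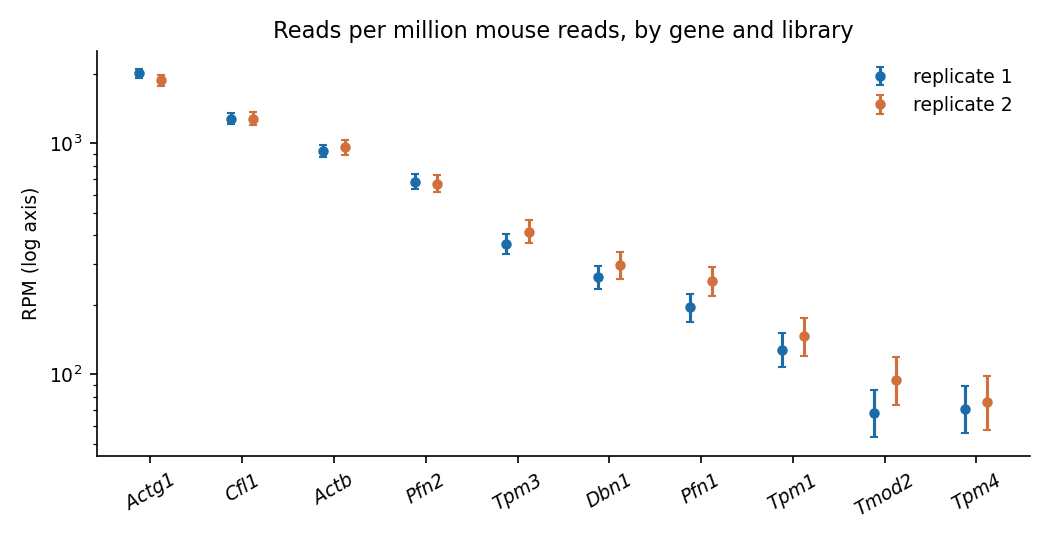
Level in RPM (log axis) of each member in replicate 1 and replicate 2, with exact Poisson 95% intervals. Actg1 is highest in both libraries at 2009 and 1873 RPM. The intervals of Tmod2 and Tpm4 overlap in both libraries, and those of Dbn1 and Pfn1 overlap in replicate 2.

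Of the 10 members, 0 differed between the libraries by the two-sided exact binomial test with Benjamini-Hochberg adjustment over 11339 genes. Among all genes tested 100 were called, or 0.882%, with 0.362% higher and 0.52% lower in replicate 2 (41 and 59 genes). With scaling to the spike-in RNAs the split was 304 higher and 19 lower, and 5 of the 10 members were called, all of them higher in replicate 2. Pfn1 had the lowest unadjusted p of the members, 0.0095, with 209 and 191 reads, a log2 ratio of replicate 2 over replicate 1 of 0.38 (0.09 to 0.67) and an adjusted p of 0.30. Actg1 had a log2 ratio of -0.10 (-0.20 to -0.0037) and an adjusted p of 0.55, and with scaling to the spike-in RNAs this ratio was 0.14. Tmod2 had a log2 ratio of 0.47 (-0.02 to 0.96) and an adjusted p of 0.58. The median log2 ratio was 0.14 over the members and -0.0035 over all genes tested.

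The cytoplasmic actins were read almost entirely from their main annotated transcripts. Actb (chr5:142903115-142906754, minus strand) made up 31.6% (29.95 to 33.2) of the reads of both actins in replicate 1 and 33.9% (31.96 to 35.98) in replicate 2. Of full-length Actb reads, 884 of 899 and 617 of 624 had the splice chain of Actb-201. Actg1 (chr11:120345690-120348542, minus strand) had the chain of Actg1-202 on 1881 of 1953 and 1193 of 1254 full-length reads. Another 65 and 55 reads had the chain of Actg1-204, which codes for the same protein and begins inside the second exon of Actg1-202. A read of Actg1-202 cut short at that exon has the same chain, so the 2 cannot be told apart. Processed pseudogenes took few reads: of those with at least 300 bases aligned at 80% identity or more, 3 of 13 for Actb and 3 of 16 for Actg1 had any. These are the same 3 pseudogenes for both actins, with 13 and 8 reads in all. The muscle actins were far below both, with 22.4 and 17.3 RPM of Acta2, 12.1 and 13.3 RPM of Acta1 and 0 reads of Actc1.

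Profilin and cofilin reads likewise fell on a main form. Pfn2 (chr3:57841895-57848079, minus strand), the profilin abundant in neurons, outnumbered the widely expressed Pfn1 (chr11:70651850-70654644, minus strand). Pfn1 held 22.2% (19.6 to 25.0) and 27.4% (24.3 to 30.9) of the reads of Pfn1 and Pfn2 together. Their coding sequences were 61.7% identical over 420 bases. Pfn1-201 took 197 of 202 and 186 of 187 full-length Pfn1 reads, and Pfn2-201 took 657 of 690 and 458 of 475 of Pfn2. Pfn2-202, with another first exon, had 20 and 4 reads, and Pfn2-203, with another last exon, had 3 and 6. Cfl1 (chr19:5490455-5495201, plus strand) had the chain of Cfl1-202 on 1133 of 1144 and 795 of 812 reads. The related severing genes Dstn and Cfl2 had 359 and 338 RPM and 149 and 146 RPM.

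The reads of Cfl1 without a splice junction were classed differently in each library. They were 15.3% of Cfl1 reads in replicate 1 and 14.8% in replicate 2. The authors' tables put 209 of them in the class of incomplete splice matches in replicate 1, on a model of 649 bases within the last exon. In replicate 2 they put 143 in the class Genomic, used for models that overlap a gene without matching its splicing, on a model of 3514 bases that spans 3 introns of Cfl1-202. Without Genomic models the log2 ratio of Cfl1 went from 0.00054 to -0.22, with an adjusted p of 0.032 by the exact binomial test.

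Tmod2 (chr9:75565621-75611325, minus strand), the neuronal tropomodulin, was measured mostly by reads that show no splicing. Genomic models held 80.8% of its reads in replicate 1 and 77.5% in replicate 2, against 6.04% and 6.61% over all annotated genes. The main Genomic model had 59 and 54 reads and lay within the last exon of Tmod2-202, an exon of 8503 bases, outside the coding sequence. The annotated transcripts of Tmod2 had 13 and 15 reads. Without Genomic models its mean level fell from 81.1 to 18.2 RPM. Its relatives Tmod3 and Tmod1 had 50 and 39 reads and 28 and 16 reads.

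**Figure D2:**
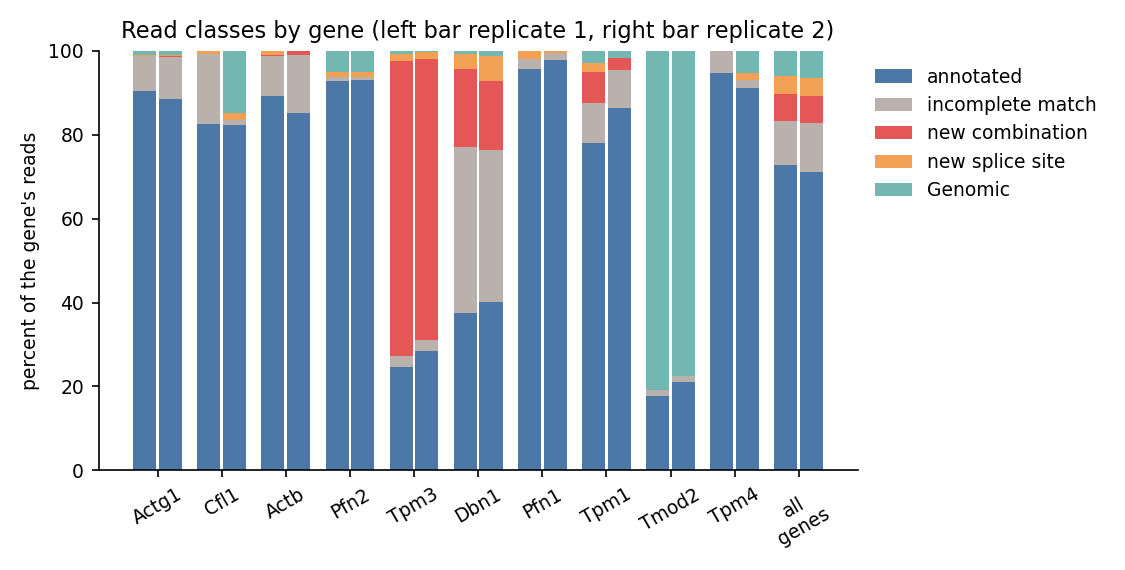
Percent of each gene's reads in the authors' model classes, with replicate 1 on the left and replicate 2 on the right of each pair of bars. Tpm3 stands out for new combinations of annotated splice sites (70.2% and 67.1%), Tmod2 for the class Genomic, and Cfl1 for a class that differs between the libraries.

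Tpm3 (chr3:90072649-90100902, plus strand) was read mainly as a form that the annotation does not hold. A chain of 8 exons with the downstream internal exon and the distal last exon took 262 of 380 full-length reads (68.9%, 64.1 to 73.4) in replicate 1 and 195 of 304 (64.1%, 58.6 to 69.3) in replicate 2. It joins annotated exons in another combination and keeps the reading frame, with 248 codons, as many as Tpm3-201. The annotated Tpm3-201, which differs from it in having the upstream internal exon, had 59 and 58 reads. Tpm3-202, which adds an exon of 79 bases, had 22 and 19 reads, and Tpm3-203, with the proximal last exon, had 16 and 12. The gene Tpm3-rs7, whose transcript was 99.1% identical to that of Tpm3 over 2108 bases, had 17 and 27 reads that were not counted with Tpm3, so the split between these near-identical genes is uncertain.

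The downstream exon of the Tpm3 pair was on 309 of 379 spanning reads (81.5%) in replicate 1 and 235 of 303 (77.6%) in replicate 2. The upstream exon was on 71 (18.7%) and 68 (22.4%). By Fisher's exact test, 0 of the member exons with a mean inclusion of 5 to 95% differed between the libraries, against 0.205% of 1952 exons over all genes. The exon of 79 bases was on 8.95% and 8.58% of reads. The distal last exon took 93.9% and 93.4% of full-length reads and the proximal last exon 6.05% and 6.25%. Since a read spans both sites, the choices can be compared. The distal last exon was on 93.8% and 93.6% of reads with the downstream exon and on 94.4% and 94.1% with the upstream exon. Its share was thus nearly the same with either exon, with no test.

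All but a few Tpm3 reads began at the inner first exon, 379 of 380 and 300 of 304. The outer first exon, which opens the long forms known from muscle, had 0 of 380 and 0 of 304 reads, and 3 reads of these totals, the limit taken for a count of 0, are 0.789% and 0.987%. The 5 skeletal muscle markers summed to 16.8 and 14.6 RPM, with 13 and 10 reads of Acta1, 4 and 0 of Myh1, 1 and 1 of Ckm, and 0 of Tnnt3 and Myl1 in both libraries.

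Tpm1 (chr9:67022590-67049406, minus strand) used both of its main first exons and 3 last exons. The inner first exon opened 100 of 120 full-length reads (83.3%, 75.7 to 88.9) in replicate 1 and 85 of 98 (86.7%, 78.6 to 92.1) in replicate 2, and the outer first exon the other 20 and 13. Among first exons over all genes 0.359% of 3342 were called, and 0 of those of Tpm1. The last exon known as the brain type closed 80 reads (66.7%) and 73 reads (74.5%). The upstream last exon closed 32 (26.7%) and 19 (19.4%), and the distal last exon 7 (5.83%) and 6 (6.12%). Last exons were called for 0 of the members, against 0.612% of 1307 over all genes.

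The coding parts of these last exons are shown to compare the ends of the proteins, with the stop codon in capitals. They are given as annotated in transcripts without the exon of 79 bases. The reading frame of reads that carry that exon was not examined. The coding parts of Tpm1 lie at chr9:67024492-67024565, chr9:67028076-67028167 and chr9:67023359-67023441, and those of Tpm3 at chr3:90099528-90099610 and chr3:90098375-90098454.
Tpm1 brain type: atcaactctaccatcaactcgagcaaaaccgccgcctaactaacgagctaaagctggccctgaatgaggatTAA
Tpm1 upstream: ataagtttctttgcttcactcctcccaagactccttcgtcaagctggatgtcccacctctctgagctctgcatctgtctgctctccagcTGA
Tpm1 distal: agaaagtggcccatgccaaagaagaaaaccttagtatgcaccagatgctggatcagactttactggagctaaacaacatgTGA
Tpm3 distal: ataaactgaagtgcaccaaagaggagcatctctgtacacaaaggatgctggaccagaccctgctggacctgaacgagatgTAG
Tpm3 proximal: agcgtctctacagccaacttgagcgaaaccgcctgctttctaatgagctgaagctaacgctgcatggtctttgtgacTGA
Over the first 60 coding bases the Tpm1 brain-type end was 71.7% identical to the Tpm3 proximal end and 43.3% to the distal end. The Tpm1 distal end was 61.7% identical to the Tpm3 distal end and 35.0% to the proximal end. By this likeness, the end most used in Tpm1 corresponds to the end least used in Tpm3.

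The most frequent Tpm1 chain, Tpm1-209, joins the inner first exon to the brain-type last exon and had 69 of 120 reads (57.5%) and 68 of 98 (69.4%). Tpm1-206, with the upstream last exon, had 16 and 10 reads, and the long form Tpm1-210 had 9 and 5. The brain-type last exon was on 71 of 99 reads (71.7%, 62.2 to 79.6) with the inner first exon in replicate 1 and on 68 of 85 (interval 70.3 to 87.1%) in replicate 2. With the outer first exon it was on 9 of 20 reads (45.0%, 25.8 to 65.8) and 5 of 13 (38.5%, 17.7 to 64.5). The share was thus lower with the outer first exon in both libraries, on few reads and with no test. The downstream internal exon was on 117 of 117 and 93 of 98 spanning reads. The upstream exon had 0 and 4 reads, and all 4 of these had the distal last exon. The exon of 79 bases was on 6.67% and 7.14% of reads.

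Tpm4 (chr8:72134975-72153142, plus strand) showed a single form, with Tpm4-201 on 72 of 72 and 52 of 53 full-length reads. Tpm1 had 25.8% and 26.0% of the reads of Tpm1 and Tpm3 together. Tpm2, the remaining tropomyosin gene and no member, had 9 and 7 reads. Smooth muscle and mural cell markers summed to 166 and 178 RPM, of which Rgs5 alone had 119 and 137 RPM. Acta2 had 22.4 and 17.3 RPM, Pdgfrb 14.9 and 21.2 RPM, Tagln 5.60 and 1.33 RPM and Myh11 3.73 and 1.33 RPM, with Cnn1 at 0. The part of these cells in the tropomyosin reads was not tested.

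**Figure D3:**
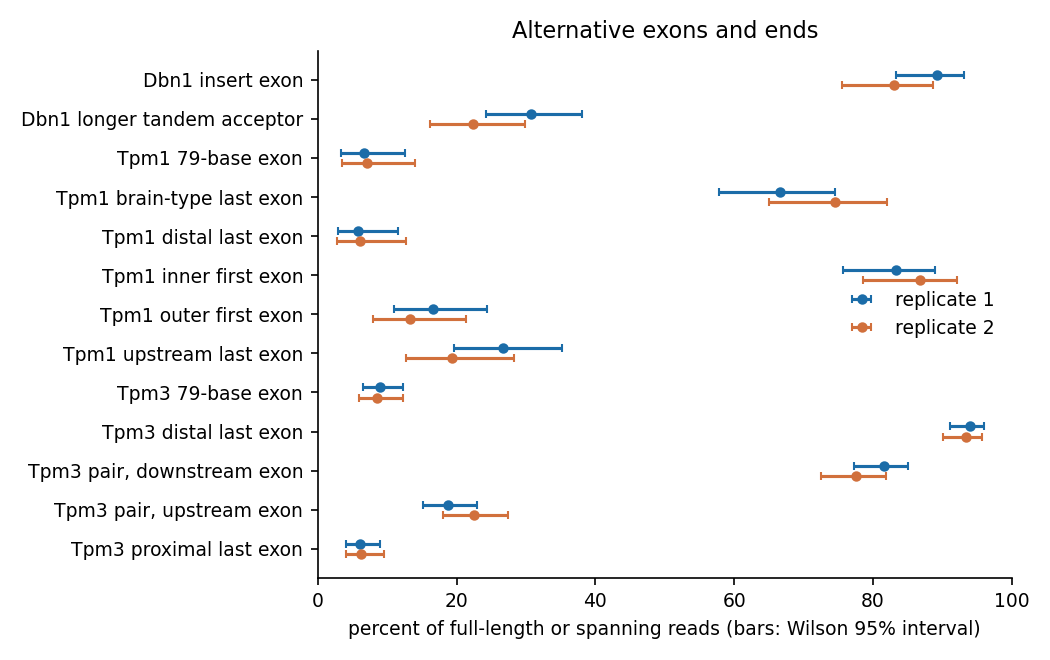
Percent of reads with each alternative exon, first exon, last exon or acceptor of Tpm1, Tpm3 and Dbn1, with Wilson 95% intervals, for replicate 1 and replicate 2. The intervals of the libraries overlap for every feature, and the downstream exon of the Tpm3 pair lies at 81.5% and 77.6%.

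Dbn1 (chr13:55473429-55488111, minus strand) was read mostly with its insert. The insert exon was on 140 of 157 spanning reads (89.2%, 83.3 to 93.1) in replicate 1 and 103 of 124 (83.1%, 75.5 to 88.6) in replicate 2. Fisher's exact test gave an adjusted p of 1.0. With incomplete reads counted too, inclusion was 206 of 234 (88.0%) and 149 of 174 (85.6%). Dbn1-201, which has the insert and 706 codons, took 91 of 169 and 70 of 140 full-length reads. Dbn1-203, which lacks it and has 660 codons, took 8 and 17, with an unadjusted p of 0.021 and an adjusted p of 0.73 by Fisher's exact test. Among splice chains over all genes 0.488% of 8394 were called, and 0 of those of the members.

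A drebrin chain outside the annotation joined the insert to the longer of the acceptors. It had 38 of 169 reads (22.5%, 16.8 to 29.4) and 22 of 140 (15.7%, 10.6 to 22.6), and keeps the frame with 707 codons. Over all full-length Dbn1 reads that reach the site, the longer acceptor was on 51 of 166 (30.7%, 24.2 to 38.1) and 31 of 139 (22.3%, 16.2 to 29.9). This site was examined after the Dbn1 chains had been seen. Its difference between libraries had an unadjusted p of 0.12 by Fisher's exact test, and of 336 such acceptor pairs over all genes 0.0% were called, with 11 at an unadjusted p under 0.05. The longer acceptor was on 28.1% and 22.5% of reads with the insert and on 8 of 17 and 4 of 21 reads without it. These last shares rest on few reads and their order differs between the libraries.

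Dbn1 also had the most full-length chains of the members, 25 and 26, of which 22 and 23 were outside the annotation. All of these unannotated chains shared 53 and 37 reads with new combinations of splice sites and 10 and 13 with a new splice site. Many of those reads fell on the chain described above, so the other unannotated chains rest on few reads. Incomplete splice matches made up 39.4% and 36.2% of Dbn1 reads, against 10.6% and 11.6% over all annotated genes. Dbn1-201 has 15 exons, more than the main transcript of any other member. The drebrin-like gene Dbnl had 172 and 146 reads beside 282 and 224 of Dbn1.

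**Figure D4:**
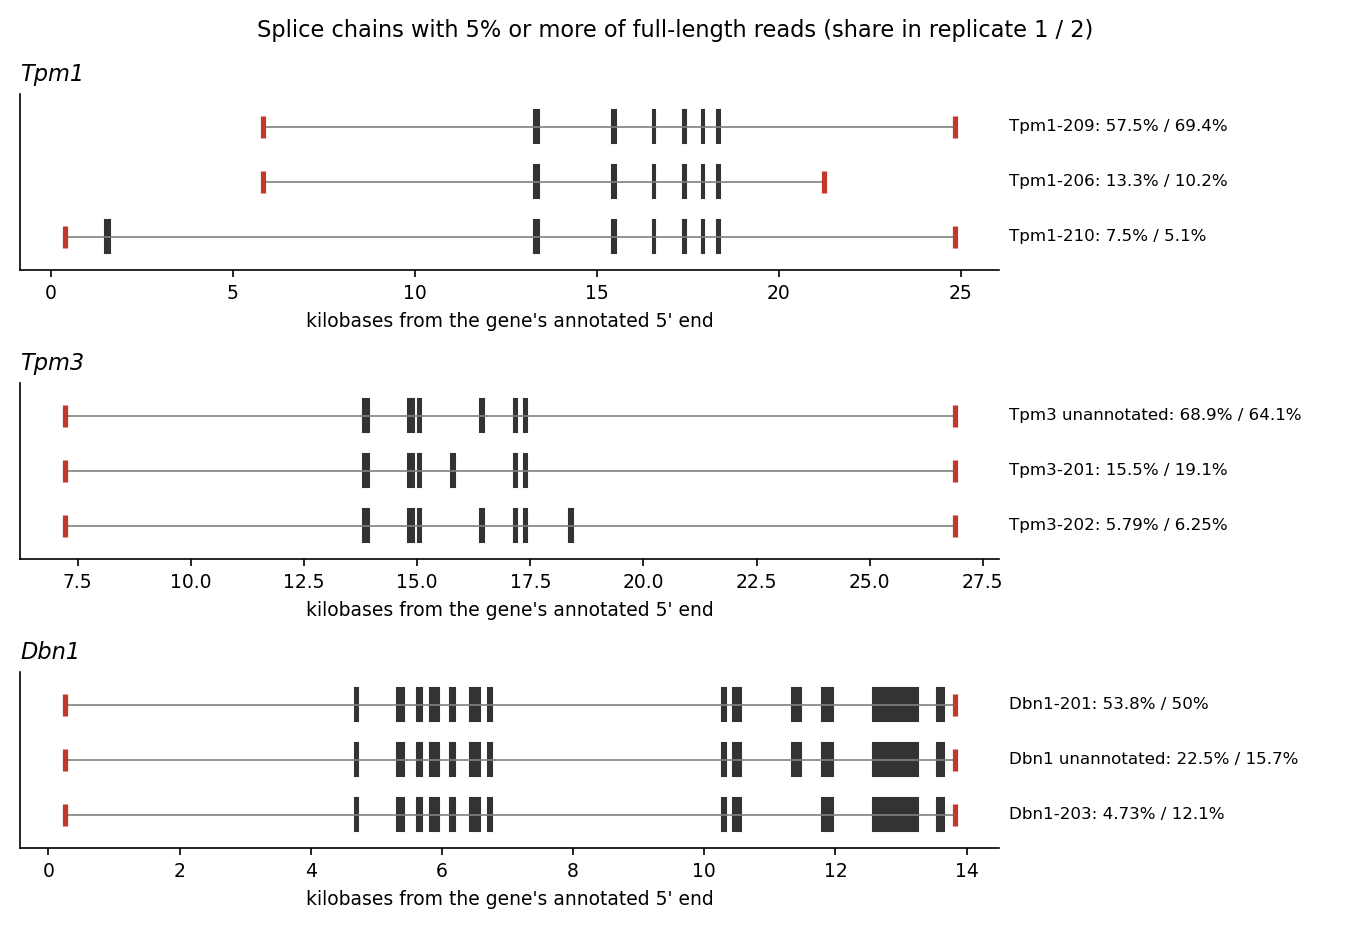
Splice chains of Tpm1, Tpm3 and Dbn1 with a mean of 5% or more of full-length reads, drawn to scale in kilobases from the gene's annotated 5′ end, with the share in replicate 1 and replicate 2. Black boxes are internal exons and red ticks mark the end of the first exon and the start of the last exon. The uppermost Tpm3 chain, at 68.9% and 64.1%, differs from Tpm3-201 in the internal exon.

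Among the other genes of the actin system, Gsn and Capza2 were called lower in replicate 2 with scaling to mouse reads. Of 109 genes in 13 lists, 103 had reads and 95 were tested, of which 0 were higher and 2 lower in replicate 2 by the exact binomial test, with a median log2 ratio of -0.04. Over all genes tested 0.362% were called higher and 0.52% lower. Gsn encodes the severing protein gelsolin, and Capza2 a subunit of the barbed-end capping protein. Gsn had 651 and 325 RPM (log2 ratio -0.999, adjusted p = 2.35e-19), and Capza2 had 860 and 709 RPM (log2 ratio -0.28, adjusted p = 0.042). The adjusted p of Capza2 lies close to the threshold of 0.05. With spike-in scaling the median log2 ratio of all genes went from -0.0035 to 0.24, a shift nearly as large as the ratio of Capza2. The call of Capza2 under that scaling was not examined. Myelinating oligodendrocyte markers were also lower in replicate 2, as given above, and their part in the value of Gsn was not tested. The most abundant genes of the other lists included the monomer-binding Tmsb10 at 1341 and 1501 RPM, the bundling protein Fscn1 at 728 and 699 RPM, Cdc42 at 574 and 552 RPM and the Arp2/3 subunit Arpc2 at 448 and 422 RPM.

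**Figure D5:**
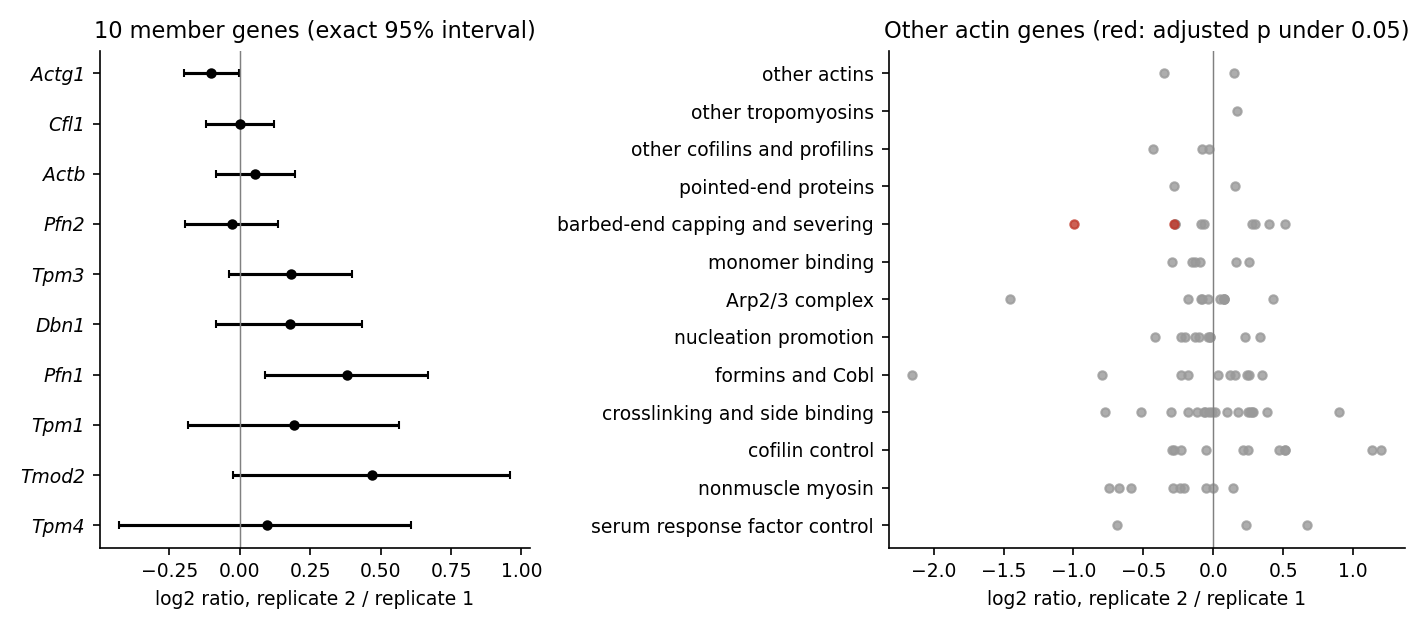
Log2 ratio of replicate 2 over replicate 1 for the 10 members with exact 95% intervals (left) and for each tested gene of the other actin lists (right), with genes past the test in red. The intervals of Actg1 and Pfn1 exclude 0 before adjustment, and the red points are Gsn and Capza2.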

How the data were processed

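Long-read RNA sequencing of the left cerebral cortex gave 1 group of 2 libraries. Per the file headers, reads were placed on mm10 with the annotation GENCODE M21. The authors deposited, for each library, a table of raw counts by transcript model, and TALON stands in the source field of these models. No aligner or version was found in the sources used. Exon positions were used as the authors deposited them, counted from 1.

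Models were summed per gene, and models were matched between libraries by intron positions. Genes with 10 or more reads entered an exact binomial test, two-sided and set against the totals of mouse reads, and log2 ratios use a pseudocount of 0.5 reads. Exons, first exons, last exons and splice chains with 20 or more reads in each library and a mean share of 5 to 95% were compared by two-sided Fisher's exact test. All p-values were adjusted over all genes or features by Benjamini-Hochberg. Full-length reads are those of annotated models and of unannotated models with a complete chain. Shares have Wilson intervals. Tools were Python 3.11.15, scipy 1.17.1, minimap2 2.31 for pseudogene matches, edgeR 4.0.16 (TMM scaling) and DESeq2 1.42.0 (size factors). The tests were tried on simulated data.

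All 10 members are named, with each tested exon, end or chain. Other genes are up to 3 of the most abundant of a list or those called. The members and lists were chosen with earlier results of these data known. The acceptor comparison was added after the data had been seen. Alternatives covered the models counted, scaling, read minimum and pseudocount.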

Additional observations from a re-analysis of the deposited data

Results flagged for a closer look

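Reads on the strand opposite to a member gene lie outside the counts above. The values here are those of the single-exon model with the most such reads at each of the 4 members where such a model had 10 or more reads in both libraries, which the authors placed on the other strand, and the strand of reads without a splice junction was not tested. At Actb this model had 354 reads in replicate 1 and 193 in replicate 2, over 421 bases inside the last exon, or 0.356 and 0.266 for each Actb read. At Tmod2 it had 149 and 150 reads, inside the long last exon, or 2.04 and 2.11 for each Tmod2 read. At Tpm1 it had 22 and 27 reads, and at Tpm3 29 and 19. In replicate 1, all antisense models together had 150 reads at Tmod2 and 24 at Tpm1, and a Genomic model added 1 read at Tpm3. Opposite Pfn1, Cfl1 and Tpm4 a few reads fell on models classed as spliced forms of neighbouring genes, such as Eno3 with 3 reads opposite Pfn1 in replicate 1.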

How the results depend on the processing

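No paired analysis was possible because the 2 libraries belong to 1 group. The count of genes that differ between the libraries was 100, and became 35 with annotated transcripts only, 176 without Genomic models and 323 with spike-in scaling (304 higher and 19 lower, against 41 and 59), which moves the median log2 ratio of all genes to 0.24. Of the members, 1 was called without Genomic models, namely Cfl1, whose log2 ratio went from 0.00054 to -0.22. That setting drops 143 unspliced Cfl1 reads of replicate 2 but keeps 209 of replicate 1, which were classed as incomplete matches. With spike-in scaling 5 members were called (Actb, Tpm3, Cfl1, Pfn1 and Dbn1, all higher in replicate 2). With annotated models only, called alternative exons went from 4 to 0, first exons from 12 to 1, last exons from 8 to 4 and splice chains from 41 to 5. First exons numbered 7 with 50 or more reads in each library. Annotated models alone leave out the main Tpm3 chain, so that the downstream exon of its pair had a mean of 37.0% in place of 79.5%, and the upstream exon 63.0% in place of 20.6%. Under the same setting the Tpm3 exon of 79 bases had 22.01% in place of 8.76%, the Tpm3 proximal last exon 14.99% in place of 6.15%, the Tpm1 exon of 79 bases 3.10% in place of 6.90%, and Dbn1-201 81.8% in place of 51.9%. Dbn1-203 had 13.2% in place of 8.44%. Of 70 log2 ratios of members under alternatives, 64 stayed on their side of the threshold without a called change of sign and 5 gained a call. The remaining 1, that of Cfl1 without Genomic models, went from near 0 to a called negative value. Depth limits the Tpm1, Tpm4 and Tmod2 shares most.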
